A study of Mus musculus with 4 samples.

Results

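The S-phase and DNA replication genes described here are 42 genes, chosen by name and read from the 19938 genes that the array table can name. All 42 were found on the array. For each gene the feature (the set of probes summarised into 1 value) with the highest mean over the 4 arrays was taken. Mouse embryos of age E18.5, in embryonic days, gave the dorsal cortex RNA, which was hybridised to 4 single-colour whole-transcript arrays. The 2 control samples are labelled Mek1fl/wt with Mek2-/-, so Mek2 is absent and Mek1 has a wild-type allele left. The 2 mutant samples are labelled Mek1fl/fl with Mek2-/- and carry NestinCre, a transgene in which Nestin regulatory elements drive Cre in neural progenitor cells, so that the cells they give rise to carry the deletion as well. The design text speaks of WT embryos, but the label of the controls is the Mek2-/- genotype above. Cre is named for the mutants only, so the transgene and the loss of Mek1 cannot be told apart. The labels name no litter and do not tie an array to an animal, so p-values reflect the spread between these 4 samples, which may be technical.

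MEK1 and MEK2 are the kinases that activate ERK1 and ERK2, and ERK signalling is a known driver of the passage from G1 into S phase. In G1, the origin recognition complex, CDC6 and CDT1 load the ring of MCM2 to MCM7 onto DNA, a step called licensing, and geminin blocks CDT1 once S phase has begun. CDC45, the GINS complex and MCM10 then turn the loaded rings into active helicases, the primase and polymerases copy the strands, and PCNA with its loader holds the polymerases in place. Many genes of this machinery are known targets of E2F transcription factors, which cyclin E and CDK2 help to release from RB. In the late embryonic cortex the cells that replicate DNA are mainly radial glia, intermediate progenitors and the precursors of glia, whereas projection neurons have left the cycle.

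Most of the replication genes had a somewhat lower mean in the mutant cortex, and 1 of them, Mcm3, passed the test. A lower mean in the mutants was seen in 41 of the 42 genes, and E2f1 was the exception. Over all 19938 genes the share with a lower mean was 45.6%. The median difference of the 42 genes, mutant minus control, was -0.26 on the log2 scale, against 0.01 over all genes. Both mutant arrays lay below both control arrays in 36 of the 42 genes, in the other 6 the groups overlapped, and in none did the mutants lie above. Over all genes, 18.6% lay below and 22.5% above in this way. The 42 genes share arrays and cells, so they are not replicates of the condition. Each array centred on its own median, or quantile-normalized again, left 40 of the 42 with a lower mean.

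Values are the deposited log2 expression values, and genes were called at an adjusted p under 0.05 in limma, a linear model with shared spread, over 13956 genes tested. Of the 40 replication genes tested, 1 fell (Mcm3), none rose, and 39 did not pass. The share called lower was 2.5%, against 1.01% of all genes tested called lower and 0.0143% called higher. At an unadjusted p under 0.05, 26 of the 40 were lower and 0 were higher, against 7.69% and 5.73% of all genes tested. Another 8 members had an adjusted p between 0.05 and 0.1. Orc1 and Gmnn were too dim for the test, with means under 6.16, the level below which genes were left out. Leaving out control 1 or control 2 left 0 members called (0.0645% of all genes tested were called lower in each case). Leaving out mutant 1 gave 4 (background 1.65%) and leaving out mutant 2 gave 13 (background 5.24%). A variance trend in the fit gave 6 members (background 1.55%), a filter at the 50th percentile 6 (background 1.3%), a further quantile normalization 3 (background 0.996%) and keeping dim genes 0 (background 0.0752%). With 2 arrays a group, the number of arrays limits the precision.

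**Figure D1:**
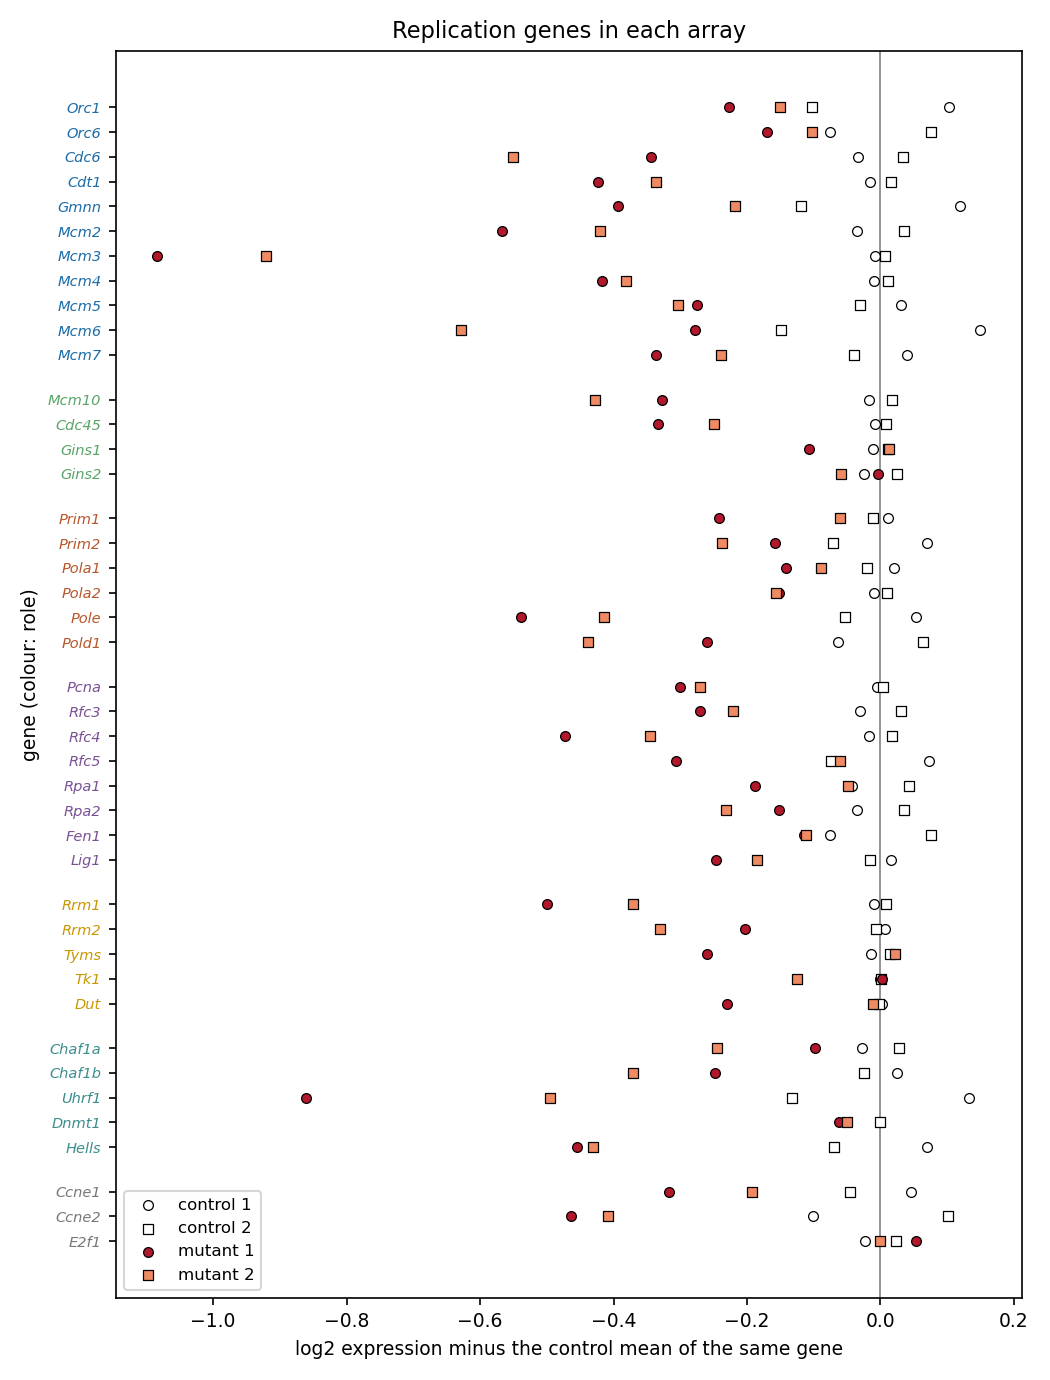
Each replication gene's log2 expression in the 4 arrays, less that gene's control mean (x axis), with genes in rows grouped by role (label colour). Open symbols are controls and filled symbols mutants; in 36 of the 42 genes both mutants lie to the left of both controls, and Mcm3 lies furthest left.

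Licensing genes held the only member called. Mcm3, a subunit of the MCM ring that unwinds DNA at the fork, was at 8.39 and 8.41 in the controls, against 7.32 and 7.48 in the mutants. The groups are far apart, and each mutant lies well below the lower control. The difference was -1.002 ± 0.073 (SE), with group values of 8.40 ± 0.01 and 7.40 ± 0.12 (SD, n = 2 each). This is a 2.00-fold fall (adjusted p = 0.0185 in limma). The call was lost without control 1 (adjusted p = 0.129 in limma), without control 2 (0.120) and when dim genes were kept in the test (0.0600), and narrowly with a crossed pairing of the arrays as a block (0.0540). Over the 13 other fits the adjusted p ran from 0.00102 to 0.129 in limma, and 9 of these fits called Mcm3.

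The other MCM ring subunits were lower too but did not pass. Mcm2 was at 8.56 and 8.63 in controls and 8.03 and 8.17 in mutants, a difference of -0.49 ± 0.07 (SE; adjusted p = 0.0615 in limma). Mcm4 was at 8.39 and 8.41 in controls and 7.99 and 8.02 in mutants, a difference of -0.40 ± 0.06 (SE; adjusted p = 0.0536 in limma). The mutants stood below the controls in each of these genes, by amounts larger than the gap between arrays of a group. Mcm5 differed by -0.29, Mcm7 by -0.29 and Mcm6 by -0.45, and for Mcm6 the arrays of a group were further apart, at 9.07 and 8.77 in controls against 8.65 and 8.29 in mutants. The proteins of the 6 genes form the ring in equal copies, but their transcripts did not shift equally. The level of Mcm3 less the mean level of the other 5 subunits was -0.48 and -0.39 in controls, against -1.14 and -0.96 in mutants. The offset between different genes' probes has no meaning of its own, and the change in it between the groups was chosen after the values were seen and is given without a test.

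The factors that load the ring had lower means as well, with none past the test. Cdc6, the loading ATPase, was at 6.99 and 7.06 in controls and 6.68 and 6.47 in mutants, a difference of -0.45 (95% interval -0.66 to -0.23; adjusted p = 0.113 in limma). Cdt1, the other loading factor, was at 7.65 and 7.69 against 7.25 and 7.33, a difference of -0.38 (adjusted p = 0.0737 in limma). Orc6, the smallest subunit of the origin recognition complex, was at 10.07 and 10.22 in controls and 9.98 and 10.04 in mutants. Its difference of -0.14 was the smallest among the licensing genes, and its interval ran from -0.32 to 0.05. Gmnn, which encodes geminin, was at 5.56 and 5.33 against 5.05 and 5.23, and Orc1, the ATPase subunit of the same complex, at 5.79 and 5.58 against 5.46 and 5.53. Both are dim on this array, so the size of their differences (-0.31 and -0.19) is compressed and was not tested. In all 11 licensing genes both mutants lay below both controls, and the median difference was -0.38. The same held for all 6 primase and polymerase genes and all 5 chromatin genes, against 18.6% of all genes.

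Among helicase activation genes the differences varied, with none past the test. Mcm10, which helps the loaded helicase to start, was at 6.97 and 7.002 in controls and 6.66 and 6.56 in mutants, a difference of -0.38 (adjusted p = 0.0799 in limma). Cdc45, part of the active helicase, was at 8.33 and 8.34 against 8.004 and 8.09, a difference of -0.29 (adjusted p = 0.132 in limma). In both genes the mutants lay apart from the controls. Gins1 was at 8.22 and 8.24 in controls and 8.13 and 8.25 in mutants, and Gins2 at 7.90 and 7.95 against 7.92 and 7.87. The groups overlapped in both of these GINS subunits. The other GINS genes, which belong to the wider pathway list and are named after their values were seen, were not alike. Gins3 was at 7.11 and 7.08 against 6.90 and 6.85, a difference of -0.22 (interval -0.36 to -0.08; adjusted p = 0.205 in limma), and Gins4 overlapped between the groups, at 9.12 and 9.02 against 8.91 and 9.16. No difference between the complexes was tested. For the first pair the intervals, -0.21 to 0.12 for Gins1 and -0.18 to 0.12 for Gins2, leave out a difference as large as that estimated for Mcm10. Without mutant 1 the Gins1 difference was 0.0126, and with the arrays centred or quantile-normalized again that of Gins2 was 0.00356 or 0.0085.

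Among the primase and polymerase genes the catalytic subunits of the strand-extending enzymes had the largest differences, with none past the test. Pole, the catalytic subunit of the leading-strand polymerase epsilon, was at 7.24 and 7.14 in controls and 6.65 and 6.77 in mutants, a difference of -0.48 (adjusted p = 0.0667 in limma). Pold1, the catalytic subunit of polymerase delta, which copies the lagging strand, was at 7.71 and 7.84 against 7.51 and 7.33, a difference of -0.35 (adjusted p = 0.194 in limma). In both the mutants lay apart from the controls. The 4 subunits of the polymerase alpha and primase complex, which lays the primers, differed by less. Prim1 was at 9.45 and 9.43 against 9.19 and 9.38 (difference -0.15), and Pola1 at 8.57 and 8.53 against 8.41 and 8.46 (difference -0.12, interval -0.26 to 0.03). Prim2 differed by -0.20 and Pola2 by -0.15, with the mutants below the controls in all 4. The other subunits of polymerases delta and epsilon, from the wider pathway list and named after their values were seen, were mostly as near to 0. Pole2 differed by -0.29 (adjusted p = 0.107 in limma) and the remaining 5 by -0.15 to -0.00774. Whether the enzymes and the primase complex differ from each other was not tested.

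Genes of the clamp and of lagging-strand synthesis had lower means, with differences from -0.41 to -0.11. Pcna, the sliding clamp, was at 10.95 and 10.95 in controls and 10.65 and 10.68 in mutants, a difference of -0.29 ± 0.05 (SE; adjusted p = 0.113 in limma). A second feature for Pcna gave 10.95 and 10.95 against 10.64 and 10.67, a difference of -0.29. The features name the same gene and may share sequence, so they are not independent. The clamp loader subunits were uneven. Rfc4 was at 9.68 and 9.71 in controls and 9.22 and 9.35 in mutants, a difference of -0.41 (adjusted p = 0.0791 in limma). Rfc3 differed by -0.25 (adjusted p = 0.186 in limma), and in Rfc5 the groups overlapped, at 9.40 and 9.25 against 9.02 and 9.27. Lig1, the ligase that joins Okazaki fragments, differed by -0.22 (interval -0.36 to -0.07) and Rpa2, a subunit of the single-strand binding protein, by -0.19 (interval -0.35 to -0.03). Rpa1, the large subunit of that protein, differed by -0.12. Fen1, the nuclease that trims Okazaki fragments, was at 7.85 and 8.003 against 7.81 and 7.82, a difference of -0.11 with an interval of -0.29 to 0.07. None of the 8 genes passed after adjustment over all genes.

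None of the deoxynucleotide synthesis genes passed, and no difference among them was tested. Rrm1, the large subunit of ribonucleotide reductase, was at 10.44 and 10.46 in controls and 9.95 and 10.08 in mutants, a difference of -0.44 ± 0.07 (SE; adjusted p = 0.0666 in limma). Rrm2, the S-phase small subunit, was at 9.06 and 9.05 against 8.85 and 8.72, a difference of -0.27 (adjusted p = 0.198 in limma). The mutants lay below the controls in both subunits. Tyms, thymidylate synthase, was at 7.66 and 7.69 against 7.41 and 7.69, so only mutant 1 was low, and without it the difference was 0.0217. Dut, which removes dUTP, was at 8.72 and 8.72 against 8.49 and 8.71, with mutant 1 low and mutant 2 just below the controls, and its difference was -0.0115 without mutant 1. Tk1, thymidine kinase, gave different answers by feature. Its brighter feature was at 7.41 and 7.41 in controls and 7.41 and 7.28 in mutants, a difference of -0.06 that was 0.00177 without mutant 2. Its dimmer feature was at 7.03 and 6.94 against 6.58 and 6.83, a difference of -0.28 with no overlap between the groups.

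Chromatin genes held the second-largest difference. Uhrf1, which reads hemimethylated DNA behind the fork and brings in DNMT1, was at 8.52 and 8.26 in the controls, against 7.53 and 7.90 in the mutants. Though the groups do not overlap, the arrays within each are far apart. The difference of -0.68 ± 0.15 (SE) did not pass (adjusted p = 0.153 in limma). Hells, a chromatin remodeller needed for DNA methylation, was at 8.23 and 8.09 against 7.70 and 7.73, a difference of -0.44 (adjusted p = 0.0693 in limma). Dnmt1, the maintenance methyltransferase itself, was at 10.33 and 10.33 against 10.27 and 10.28. Its difference of -0.06 has an interval of -0.19 to 0.08. The subunits of the histone chaperone CAF-1 differed by -0.31 (Chaf1b, adjusted p = 0.149 in limma) and by -0.17 (Chaf1a, adjusted p = 0.400 in limma).

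G1 to S regulators were not uniform either. Ccne2, a cyclin E gene, was at 6.60 and 6.80 in controls and 6.23 and 6.29 in mutants, a difference of -0.44 (adjusted p = 0.115 in limma). Ccne1, the other cyclin E gene, was at 7.59 and 7.50 against 7.22 and 7.35, a difference of -0.25 (adjusted p = 0.235 in limma). In both the mutants lay below the controls. E2f1, an E2F activator, was at 7.32 and 7.36 against 7.39 and 7.34, with a difference of 0.03 and an interval of -0.12 to 0.17. It was the only one of the 42 with a higher mean in the mutants, and without mutant 1 its difference was -0.00041.

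**Figure D2:**
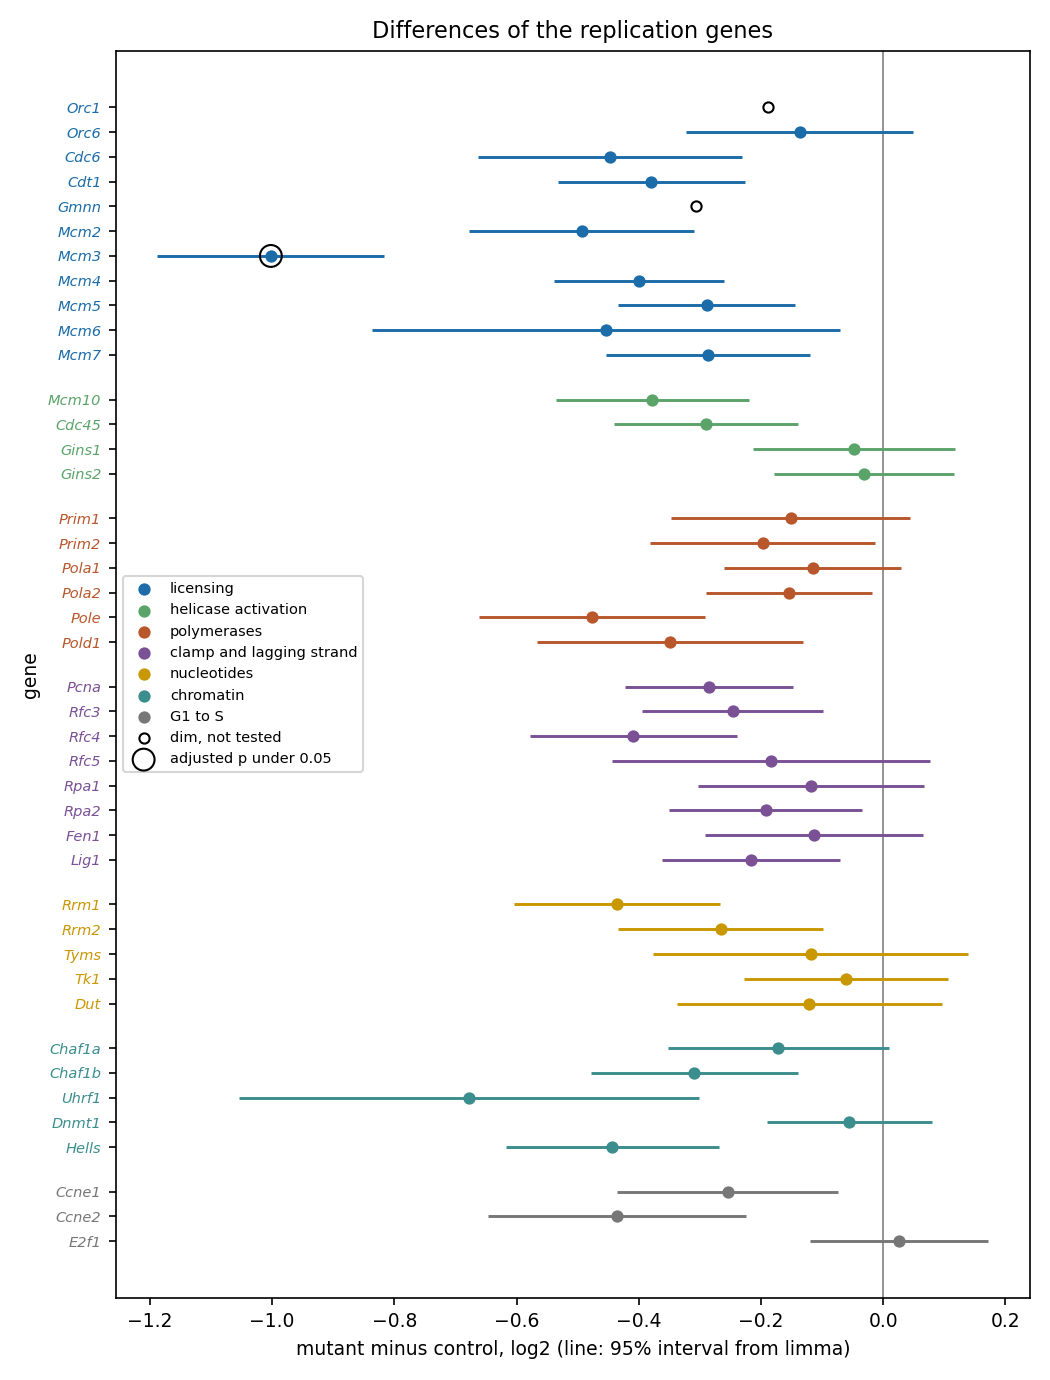
Difference between mutants and controls (x axis, log2) for each replication gene, with the 95% interval from limma as a line, grouped by role. Of the 40 genes tested 26 have an interval wholly below 0, and the ring marks Mcm3, the gene that passed after adjustment; open points are the dim genes Orc1 and Gmnn.

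Both mutants showed the difference. Against the control mean, the median of the 42 genes was -0.27 in mutant 1 and -0.24 in mutant 2. Over all genes the corresponding medians were 0.01 and 0.01. In 28 of the 42 genes mutant 1 was the lower of the 2 mutants, and in 14 mutant 2 was. Mutant 1 was also the lower in 11033 of all 19938 genes and in 8941 of the 13956 tested. By size, 2 members differed by -0.5 or less, 20 lay between -0.5 and -0.25, and 19 between -0.25 and 0.

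The other genes of the pathway, from a list of 82 of which 79 were measured, differed by less. Of the 78 tested, 2 fell (2.56%), none rose and 76 did not pass, and the median difference of the 79 was -0.11. The share of all genes tested called lower was 1.01%. At an unadjusted p under 0.05, 25 of the 78 were lower and 1 was higher, against 7.69% and 5.73% of all genes tested. Ccna2, cyclin A, which drives S phase and entry into mitosis, fell 1.76-fold, from 8.98 and 8.94 to 8.04 and 8.26 (adjusted p = 0.0278 in limma). Wee1, the kinase that holds CDK activity in check, fell 1.50-fold, from 8.54 and 8.66 to 7.98 and 8.05 (adjusted p = 0.0376 in limma). Neither was called without control 1 or without control 2.

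Within that list most groups stood nearer to 0 than the 42 genes. The 16 other origin and helicase genes had a median of -0.09. In 9 of them both mutants lay below both controls, in 1 above, and in 6 the groups overlapped. Over all 19938 genes these counts were 3702, 4482 and 11754. Donson, a fork factor, was at 0.08 (adjusted p = 0.618 in limma). The 21 other polymerase and fork genes had a median of -0.15, with Rnaseh2a, a subunit of RNase H2, at 0.04 (adjusted p = 0.817 in limma). The 10 other deoxynucleotide genes had a median of -0.02. Among them Rrm2b, the small subunit of ribonucleotide reductase used outside S phase, was at 8.26 and 8.34 in controls and 8.42 and 8.55 in mutants, a difference of 0.18 that did not pass (adjusted p = 0.372 in limma). The 8 other chromatin replication genes had a median of -0.07, and the 8 checkpoint genes, including Atrip at 0.02 (adjusted p = 0.924 in limma), a median of -0.08. The 16 other E2F, RB and G1 to S genes had a median of -0.16. E2f2 was at 0.07 (adjusted p = 0.769 in limma), and at -0.0236 without control 2. Rbl1, the RB relative p107, named after its value was seen, differed by -0.55 (adjusted p = 0.0520 in limma).

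Genes of mitosis had larger differences than the replication genes. Of 43 mitosis and kinetochore genes tested, 20 fell (46.5%), none rose and 23 did not pass, with a median difference of -0.61. The shares of all genes tested were 1.01% called lower and 0.0143% called higher. By array the medians were -0.63 in mutant 1 and -0.53 in mutant 2, so they were larger than those of the replication genes on each mutant array. Kif2c, a kinesin that takes apart microtubules at centromeres, fell 1.75-fold (adjusted p = 0.0161 in limma), Nuf2, a kinetochore subunit, 1.88-fold (0.0226), and Ncapg, a condensin subunit, 1.83-fold (0.0227). Without control 1 and without control 2 none of the 43 was called. On the list of D-type cyclins and CDK inhibitors, 2 of 11 genes tested fell (18.2%) and none rose, with a median difference of -0.07. Ccnd2 fell 2.26-fold (adjusted p = 0.0254 in limma) and Cdkn2c, the inhibitor p18, fell 1.60-fold (0.0251). Ccnd1 differed by -0.75 and did not pass (0.0790). The 2 genes of this list with a higher mean in the mutants, Cdkn2d and Cdkn1c, did not pass either. The difference between the replication and mitosis lists is a description and was not tested.

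**Figure D3:**
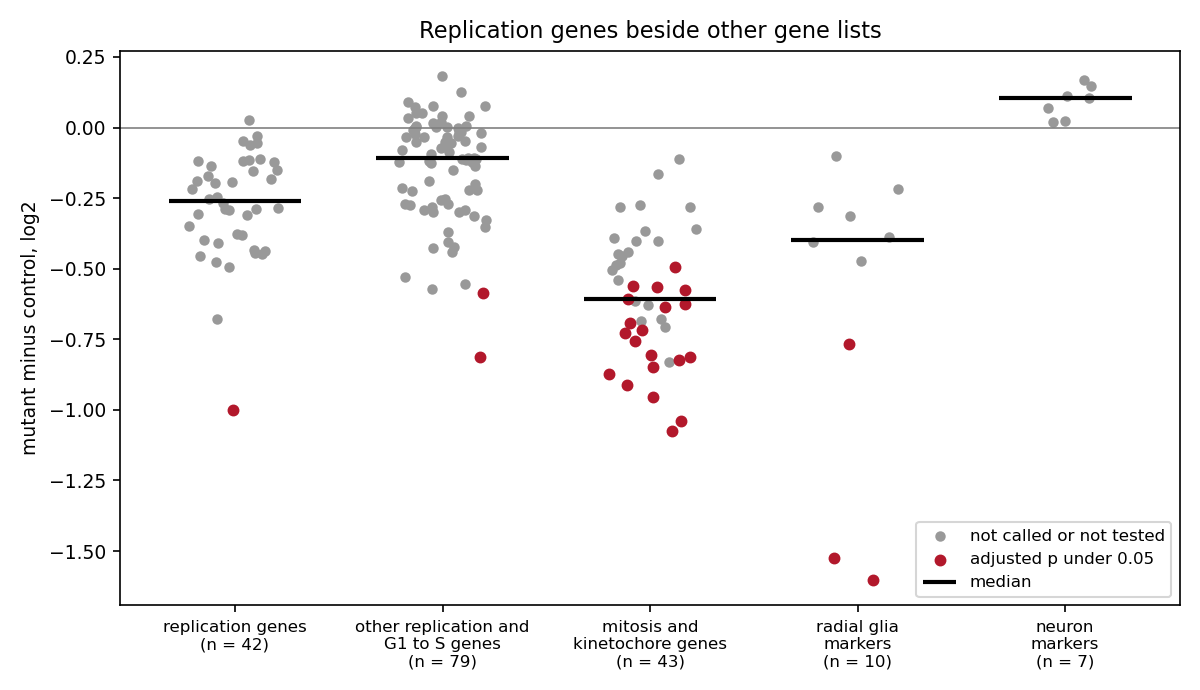
Difference between mutants and controls (y axis, log2) for every measured gene of 5 lists, with the median as a bar and called genes in red. The replication genes centre at -0.26, the other genes of the pathway at -0.11, the mitosis genes at -0.61, the radial glia markers at -0.40 and the neuron markers at 0.11.

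Most markers of the cells that divide in this tissue had a lower mean in the mutants as well. For comparison, 45.6% of all genes had a lower mean, and 1.01% of all genes tested were called lower. The mutant mean was below the control mean for all 10 radial glia markers, 3 of which fell, and their summed level on the linear scale was 15794 and 16023 in controls against 8236 and 9777 in mutants. Of 6 oligodendrocyte precursor markers 3 fell, and the sum of all 6 was 1451 and 1440 against 512 and 512. In Cspg4 of this list the groups overlapped. Of 6 astrocyte markers 2 fell and 2 were too dim for the test, with sums of 4435 and 4444 against 1667 and 1960. In Gfap and S100b of this list the groups overlapped. None of the 7 intermediate progenitor markers was called, with sums of 3076 and 3317 against 2315 and 3115. The brightest genes weigh most in such sums. The median log2 differences were -0.40 for radial glia, -1.40 for oligodendrocyte precursor, -0.82 for astrocyte and -0.21 for intermediate progenitor markers. The summed level of the 42 replication genes was 19082 and 19031 in controls and 15643 and 16197 in mutants. In bulk tissue, fewer cells in S phase and less of these transcripts per cell cannot be told apart, and the part of the marker changes in the replication result was not tested.

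No marker of neurons, of dorsal cortex identity or of the other cell types listed was called. The 7 neuron markers all had a higher mean in the mutants, by a median of 0.11. Dorsal cortex identity was present in both groups. Of its 7 markers measured, 6 had a higher mean in the mutants; Tbr1 was at 10.97 and 11.02 in controls and 11.14 and 11.07 in mutants, and Emx1 at 8.79 and 8.66 against 8.68 and 8.85. Emx2, a transcription factor also made in dividing progenitors, was the other way, at 7.80 and 7.86 against 6.70 and 7.56, with mutant 1 far below (difference -0.70, interval -1.38 to -0.02; adjusted p = 0.363 in limma). The endothelial, microglia, erythroid and mesenchymal markers, 6, 6, 5 and 6 measured, had median differences of -0.01, -0.18, -0.07 and 0.06. Dcn, a mesenchymal marker, was low on mutant 1 alone, at 7.84 and 7.81 in controls against 6.70 and 7.84. RMA, the authors' normalization, gives every feature a value, so a marker at background does not read 0. The targeted gene Map2k1, which encodes MEK1, was at 8.76 and 8.84 in controls and 8.50 and 8.73 in mutants (adjusted p = 0.469 in limma). Its feature summarises probes along the transcript, so it does not check the deletion.

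The promoters of the replication genes were searched for short motifs, which the choice of genes did not use. Promoter windows from RefSeq (GRCm38.p6), from 250 bases before to 50 after an annotated start, were at hand for 35 of the 42 genes. Each was searched on both strands for a long E2F form, spelled TTTCCCGC, TTTCGCGC, TTTGCCGC or TTTGGCGC, and for the E2F core, the same words without their first T. Every long form therefore holds a core. The CCAAT box (CCAAT), bound by NF-Y, and the CHR (TTTGAA), an element known from promoters of mitosis genes, were searched as well. An E2F core was found in 22 of the 35 genes (62.9%), against 18.6% of the 11019 tested genes with a window and 9.57% of all 32851 windows. The long form was in 14 (40.0%), against 4.44% of tested genes and 2.26% of all windows. The mitosis genes had the opposite arrangement, with the E2F core in 8 of 37 (21.6%) and the CHR in 28 of 37 (75.7%), where 4 of 35 replication genes (11.4%) had a CHR. The CHR was in 13.9% of tested genes and 17.9% of all windows. The CCAAT box was in 57.1% of the replication genes, 78.4% of the mitosis genes, 4626 of the 11019 tested genes and 37.4% of all windows. Some genes have several windows, and in 7 of the 35 the outermost annotated start lies over 100 bases inside the gene, so these shares are descriptions of the windows.

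**Figure D4:**
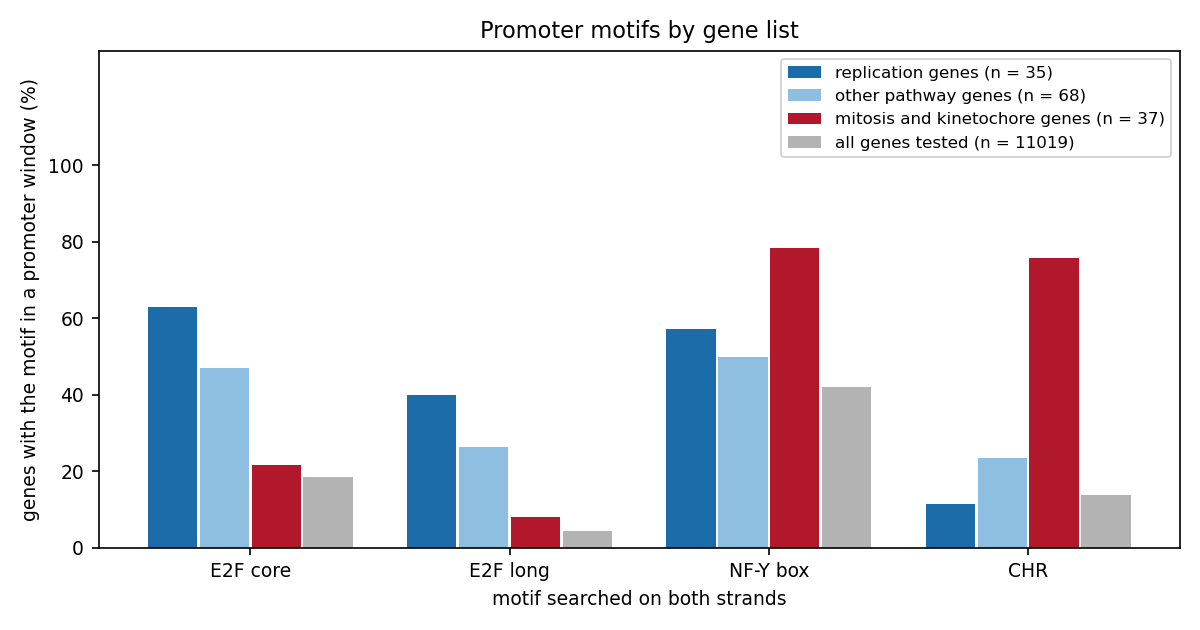
Share of genes (y axis, percent) with each motif in a promoter window, for the replication genes, the other genes of the pathway, the mitosis genes and all genes tested; the NF-Y box is the CCAAT box. The E2F core is in 62.9% of replication genes and 21.6% of mitosis genes, and the CHR in 11.4% and 75.7%.

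The stretches below show the 250 bases before the start, 5′ to 3′ on the gene's strand, for the members with the largest difference in their role, with E2F cores and CCAAT boxes of either strand in capitals. Mcm3 (chr1:20820313-20820562, minus strand), the gene that fell, has 3 CCAAT boxes here. Mcm10 (chr2:5012792-5013041, minus strand) has 2, and Rfc4 (chr16:23127731-23127980, minus strand) has neither motif. Rrm1 (chr7:102441445-102441694, plus strand) has an E2F core between 2 CCAAT boxes. Uhrf1 (chr17:56303087-56303336, plus strand) has an E2F core upstream of a CCAAT box, and the closing capitals begin another box that crosses the start.
Mcm3: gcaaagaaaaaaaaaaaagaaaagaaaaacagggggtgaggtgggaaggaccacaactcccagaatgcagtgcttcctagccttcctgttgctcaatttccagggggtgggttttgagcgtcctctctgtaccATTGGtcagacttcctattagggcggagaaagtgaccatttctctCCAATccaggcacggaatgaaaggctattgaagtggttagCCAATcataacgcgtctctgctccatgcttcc
Mcm10: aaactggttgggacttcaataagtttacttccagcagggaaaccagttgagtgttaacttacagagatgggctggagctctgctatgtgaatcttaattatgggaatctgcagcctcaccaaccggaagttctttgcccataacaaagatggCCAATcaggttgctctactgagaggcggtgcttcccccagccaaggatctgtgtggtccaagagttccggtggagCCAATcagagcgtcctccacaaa
Rfc4: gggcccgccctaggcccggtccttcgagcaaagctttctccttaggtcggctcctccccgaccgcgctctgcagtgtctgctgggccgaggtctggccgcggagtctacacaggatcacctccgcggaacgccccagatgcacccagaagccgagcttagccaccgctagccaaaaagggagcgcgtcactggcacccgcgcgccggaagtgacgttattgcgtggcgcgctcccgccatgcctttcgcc
Rrm1: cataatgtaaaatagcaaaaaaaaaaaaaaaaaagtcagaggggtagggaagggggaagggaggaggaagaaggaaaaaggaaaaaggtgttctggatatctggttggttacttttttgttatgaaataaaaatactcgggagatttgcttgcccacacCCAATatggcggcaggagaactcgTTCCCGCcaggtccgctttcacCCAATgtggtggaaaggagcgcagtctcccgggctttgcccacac
Uhrf1: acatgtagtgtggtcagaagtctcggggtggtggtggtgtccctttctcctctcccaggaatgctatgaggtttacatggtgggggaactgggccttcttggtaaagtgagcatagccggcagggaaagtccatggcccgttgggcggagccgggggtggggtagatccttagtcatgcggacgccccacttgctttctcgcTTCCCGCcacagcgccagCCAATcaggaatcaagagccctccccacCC

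Mcm3 and Rfc4 carry their E2F cores just after the start. Stretches of 30 bases there, with E2F cores in capitals, lie at chr1:20820264-20820293 for Mcm3, where 2 cores on opposite strands overlap at the right end, and at chr16:23127700-23127729 for Rfc4.
Mcm3: GCGGGAAaacttgggaagttTTGGCGCCAA
Rfc4: ccgttctgtgGCGGGAAccgcggtgccagg

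No window was at hand for Pole and Ccne2, which had the largest differences in their roles. The window of E2f1 is placed around an annotated start that lies 466 bases inside the gene, and it is not shown. A match to these letters is not evidence of binding, and its absence says only that the letters are not in this window.

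Genes with and without the E2F core were both lower. The 22 members with a core had a median difference of -0.29, from -1.002 for Mcm3 to -0.06 for Dnmt1. The 13 without one in the windows at hand had a median of -0.15, from -0.49 for Mcm2 to 0.03 for E2f1. The annotated start of the E2f1 window lies 466 bases inside the gene, and in 7 of the 35 genes the outermost start lies over 100 bases inside. For the long form the medians were -0.32 in 14 genes and -0.18 in 21. The ranges overlap widely in both cases: Rrm1 (core present) differed by -0.44 and Mcm2 (core absent) by -0.49. These are differences among genes of the same 4 arrays and are given without a test.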

How the data were processed

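Values are those of the deposited table. Per the submitters' processing notes the authors used RMA, and the log2 scale was inferred from their range. Its version, the genome build and any filter: not given in the sources used here. RMA hides a change shared by most transcripts and compresses differences of dim genes.

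Of 35557 features, 21789 have 1 gene symbol in the platform annotation, 1621 have several and 12147 are not listed. Symbols were updated by Entrez identifier through RefSeq (21698 matched). The feature with the highest mean per gene was kept (19938 genes), and genes with a mean under the 30th percentile (6.16) were left out, leaving 13956. Mutants were set against controls in R 4.3.3 by limma 3.58.1 (eBayes after lmFit, without trend or covariate), with Benjamini-Hochberg adjustment over all genes tested. The fit was tested on simulated data. Intervals are 95% and moderated, with 2 residual and 3.31 prior degrees of freedom. No list was tested as a set.

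All 42 genes are named, with array values for called genes and, per role, those with the highest mean, the smallest and the largest difference, and some others chosen after their values were seen. Other pathway genes follow a fixed rule: up to 3 called genes and the higher gene with the smallest p per list. Outside this rule, Gins3, Gins4, Rbl1 and the other polymerase delta and epsilon subunits were named after their values were seen. The members, lists, motifs and alternatives were chosen with earlier results of these data known. Alternatives covered the variance trend, the filter, scaling, the choice of feature, a replicate block and each array left out.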

Additional observations from a re-analysis of the deposited data

How the results depend on the processing

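The median difference of the 42 genes kept its sign in every fit run, at -0.23 when arrays were median-centred and between -0.28 and -0.24 with an array left out. Counts of calls moved. Without 1 array (the lone sample of a group is then assumed to vary like the other group), they ran from 9 to 881 over all genes, 0 to 13 for the replication genes, 0 to 14 for the other genes of the pathway and 0 to 36 for mitosis, with the lowest without either control and the highest without mutant 2. Leaving out an array removes residual degrees of freedom, and otherwise the cause was not tested. With a variance trend 238 genes, 6 replication genes and 4 others of the pathway were called. With dim genes kept these were 15, 0 and 0, with 0 for mitosis, over more genes tested. The stricter filter gave 6 replication genes and further quantile normalization gave 3.

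The replicate numbers did not pair the samples (correlation of deviations -0.158). With the number as a replicate block, 1 replication gene and 13 mitosis genes were called, over 116 genes in all. A crossed pairing, added after seeing the data, gave 17 genes, 0 replication genes, 0 others of the pathway and 1 for mitosis.

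Signs turned in some fits for 9 of the genes given values. Gins2 was at 0.00356 centred and 0.0085 quantile-normalized, and Gins4 at 0.00149 centred. With an array left out, Gins1 ran from -0.107 to 0.0126, Tyms from -0.259 to 0.0217, Tk1 from -0.125 to 0.00177, E2f1 from -0.00041 to 0.0527, E2f2 from -0.0236 to 0.172, Gins4 from -0.156 to 0.0891, Emx1 from -0.0464 to 0.13 and Dcn, which rests on mutant 1, from -1.12 to 0.0126. Averaging features or testing every feature left the replication count at 1.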
